A study of Mus musculus with 4 samples.

Results

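Transcript levels of 40 mitosis genes were followed across 4 Affymetrix mouse expression arrays of collecting lymphatic vessels draining tumours in mice. The list was a set of names, from the proliferation marker Mki67 to the spindle protein gene Hmmr. It was chosen with earlier results of these data known. A gene was measured where a probe set of the array was annotated with that gene symbol alone, and the probe set with the highest mean signal over the 4 arrays stood for it. By this rule 39 of the 40 genes were measured, of 18193 genes represented on the array. Ccnb1, which encodes cyclin B1, had no such probe set and was not measured here. The 39 genes had 84 single-gene probe sets in all, 14 genes with 1 and 25 with several.

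The mice carried flank tumours of 293EBNA cells, a human embryonic kidney line, grown to a volume of 2000 mm3. In the Apex group the tumour cells held the empty APEX vector. In the VEGFD group they held the vector with VEGFD, the gene of the secreted lymphatic growth factor VEGF-D. Dye put into the tumour stained its draining vessels blue, these were cut out, and cells were sorted magnetically for endothelium. Each group had 2 arrays from samples titled as biological replicates, and the labels used here give no mouse strain, age or sex and do not say whether a sample pooled animals. The labels call the cells collecting lymphatic endothelium, except for the extraction protocol, which names endothelial cells of lymph nodes.

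Mitosis is driven by cyclin-dependent kinase 1 bound to its A and B cyclins, with the Polo and Aurora kinases building the spindle. The spindle checkpoint holds cells in metaphase until every kinetochore is attached, and the anaphase-promoting complex then marks securin and cyclin B for destruction. Motor proteins and the centralspindlin complex pull the chromosomes apart and set the cleavage furrow. These genes are transcribed in a shared wave in late S phase, G2 and mitosis and are low in quiescent cells, which most endothelial and stromal cells of adult vessels are. In RNA from many cells, a larger share of dividing cells and more of these transcripts per cell cannot be told apart.

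Several arrays went against the endothelial label. Of 10 pan-endothelial markers, 6, 0, 6 and 9 lay below a signal of 25.3, the filter used below on dim genes, on Apex replicates 1 and 2 and VEGFD replicates 1 and 2. Signals of Pecam1, the CD31 gene, were 2.92, 141, 3.25 and 2.22 in that order. Of 7 measured lymphatic markers, 4, 3, 4 and 3 lay below 25.3. The lymphatic transcription factor gene Prox1 reached at most 11.6, while Flt4, also a lymphatic marker, had 42.6, 247, 161 and 145. Of 8 fibroblast markers, 1, 1, 0 and 1 lay below 25.3. Among them the collagen gene Col1a2 had signals of 5555, 6846, 6122 and 6623. Others were lower, with 2725, 2407, 204 and 168 for Dpt and at most 25.5 for Lum. Apex replicate 2 also stood apart in Xist, the gene of the RNA that silences the inactive X chromosome, which had signals of 1679, 20.1, 1230 and 876. The Y-linked gene Eif2s3y had signals of 6.36, 648, 1.53 and 2.31. Groups are therefore named by their labels throughout. The median signal per array lay between 23.8 and 30.4. The 3′ to 5′ signal ratio of the Gapdh control probe sets lay between 0.837 and 1.11, and that of the Actb controls between 1.13 and 1.45.

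The mitosis genes shared a common order over the arrays that did not follow the groups. VEGFD replicate 2 had the highest signal and VEGFD replicate 1 the lowest for all 39 measured genes, against 10.2% of the 11677 genes tested. For 38 of the 39 the full order was VEGFD replicate 1, Apex replicate 1, Apex replicate 2 and VEGFD replicate 2 from lowest to highest, against 6.94% of tested genes. Kif23 was the exception, with its Apex arrays in the other order. The members were chosen with earlier results of these data known. For the 25 genes with several probe sets, the mean that picked among them includes VEGFD replicate 2. These counts therefore describe the order and cannot test it. The 39 signals summed to 4386 and 6885 on Apex replicates 1 and 2, and to 2118 and 22084 on VEGFD replicates 1 and 2. The VEGFD arrays thus differed 10.4-fold in summed signal and the Apex arrays 1.57-fold. Apex replicate 2 was above Apex replicate 1 in 38 of the 39, against 51.6% of tested genes, and in log2(signal + 16) by at least 2-fold in 1, Pttg1, against 2.29%. In signal itself Nuf2 was also more than 2-fold apart, at 2.21-fold. Since the VEGFD arrays lay on either side of the Apex arrays for every member, the groups overlapped for every member.

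**Figure D1:**
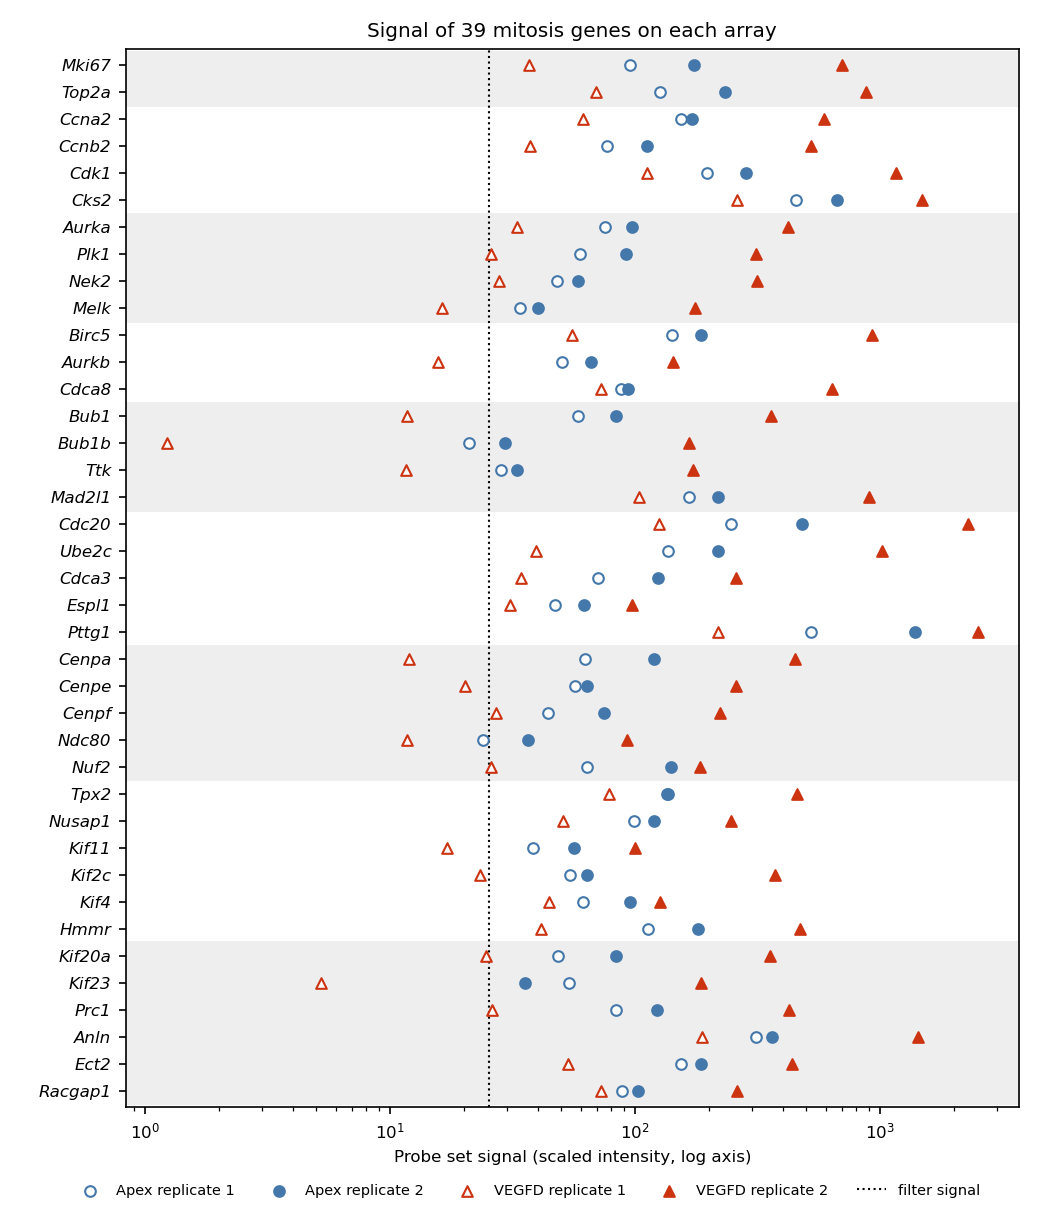
Probe set signal (scaled intensity, log axis) of the 39 measured mitosis genes on each of the 4 arrays, ordered by role, with grey and white bands marking the roles and a dotted line at the filter signal of 25.3. Open triangles (VEGFD replicate 1) are leftmost and filled triangles (VEGFD replicate 2) rightmost in all 39 rows, with the circles of the Apex arrays between them.

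The promoters of these genes are shown because the members moved together from array to array. Mitotic promoters are known for the cell cycle homology region, a short element bound by the DREAM and MuvB complexes, and for CCAAT boxes bound by the factor NF-Y. RefSeq promoter sequences of build GRCm38.p6, 300 bases each with 250 before and 50 after the start, were found for 36 of the 40 genes. A stretch from 150 bases before to 25 after the start is printed 5′ to 3′ on the gene's strand for 6 members, chosen after the search to show several arrangements. Capitals mark matches on either strand to the letters TTTGAA, to the variant element TTTAAA, and to the CCAAT box. A match on the other strand therefore reads as TTCAAA for the first motif and as ATTGG for the CCAAT box.
Ccnb2 (chr9:70421530-70421704, minus strand): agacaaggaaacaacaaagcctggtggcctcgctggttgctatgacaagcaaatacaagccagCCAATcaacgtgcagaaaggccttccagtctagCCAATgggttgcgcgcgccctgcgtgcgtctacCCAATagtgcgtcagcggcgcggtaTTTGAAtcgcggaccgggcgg
Cdk1 (chr10:69352888-69353062, minus strand): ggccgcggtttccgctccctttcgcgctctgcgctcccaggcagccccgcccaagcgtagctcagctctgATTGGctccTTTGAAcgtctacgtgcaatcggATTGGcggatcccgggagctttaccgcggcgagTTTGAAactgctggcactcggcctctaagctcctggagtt
Cdc20 (chr4:118437319-118437493, minus strand): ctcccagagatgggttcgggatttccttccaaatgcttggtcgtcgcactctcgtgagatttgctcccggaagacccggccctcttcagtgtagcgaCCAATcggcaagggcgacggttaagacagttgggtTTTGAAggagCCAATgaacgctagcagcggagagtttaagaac
Ube2c (chr2:164769779-164769953, plus strand): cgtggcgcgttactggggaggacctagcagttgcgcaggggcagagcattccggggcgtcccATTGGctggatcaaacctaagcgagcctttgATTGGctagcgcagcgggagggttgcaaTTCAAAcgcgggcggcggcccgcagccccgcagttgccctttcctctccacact
Mki67 (chr7:135716355-135716529, minus strand): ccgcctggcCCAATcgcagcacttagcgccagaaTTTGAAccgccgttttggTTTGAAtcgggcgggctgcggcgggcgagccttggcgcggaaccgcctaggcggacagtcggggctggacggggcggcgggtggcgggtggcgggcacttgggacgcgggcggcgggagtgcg
Pttg1 (chr11:43425957-43426131, minus strand): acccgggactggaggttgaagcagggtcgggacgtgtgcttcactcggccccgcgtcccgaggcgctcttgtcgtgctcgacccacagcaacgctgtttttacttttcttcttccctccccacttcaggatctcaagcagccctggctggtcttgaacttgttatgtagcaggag

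Within the printed stretch, Ccnb2 held 3 CCAAT boxes, at -87, -54 and -21, and TTTGAA at 5, counted from -1 for the base before the start and 1 for the base after it. Cdk1 held TTTGAA at -71 and -15, and Cdc20 held it at -18, between CCAAT boxes at -53 and -8. In Ube2c the letters lay on the other strand, with TTCAAA at -29. Mki67 held TTTGAA farther out, at -116 and -98. Pttg1 held none of the searched letters in its 300 bases. Its signals followed the same order.

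Over the 300 bases, TTTGAA on either strand was found in 25 of 36 mitosis genes (69.4%) and in 20.2% of 27025 genes with a RefSeq promoter. Within 50 bases on each side of the start it was found in 23 of 36 (63.9%) and in 5.72% of all genes. TTTAAA, which reads the same on both strands, was found over the 300 bases in 25% of the mitosis genes and 14.9% of all genes. CCAAT was found in 75% and 41.1%. The CCAAT share was 68.4% in 38 further mitosis genes and 62.5% in 24 DNA replication genes with a promoter. The share with TTTGAA was 60.5% in these further mitosis genes and 12.5% in the replication genes. TTTGAA and CCAAT occurred together in 61.1% of the mitosis genes and 8.97% of all genes. Among the genes tested on these arrays the share with both was 6.78%. Motifs that shared bases were each counted, and where a gene had more than 1 promoter a match in any of them counted. These matches describe letters and were not tested as binding sites.

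Below, signals list the Apex arrays first and the VEGFD arrays next, each pair with replicate 1 before replicate 2. Mki67, which encodes the Ki-67 protein that coats mitotic chromosomes, had signals of 95.5, 174, 36.9 and 696. Top2a, which encodes the topoisomerase that untangles sister chromatids, had 126, 232, 69.4 and 878. VEGFD replicate 2 was thus 4.01-fold and 3.78-fold above the brighter Apex array, and VEGFD replicate 1 lay 2.59-fold and 1.81-fold below the dimmer Apex array.

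Of the cyclins and their kinase, Cdk1, the gene of the kinase that starts mitosis, had signals of 196, 284, 112 and 1157. Ccna2, which encodes cyclin A2, had 154, 170.3, 61.3 and 592. Ccnb2, which encodes cyclin B2, had 77.0, 112, 37.2 and 521. The VEGFD arrays differed 10.3-fold in Cdk1, 9.66-fold in Ccna2 and 14.0-fold in Ccnb2, while the Apex arrays differed 1.45-fold, 1.11-fold and 1.46-fold. Cks2, the gene of a small subunit that helps the cyclin-dependent kinase bind its targets, had 455, 669.5, 259 and 1479.

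Among mitotic kinases, Plk1, the Polo kinase gene, had signals of 59.7, 92.0, 25.8 and 310.1. Aurka, which encodes the Aurora kinase of the spindle poles, had 75.3, 96.9, 32.8 and 422. Nek2, the gene of a kinase that splits the centrosomes, had 48.1, 58.7, 27.7 and 314. Their ratios between the VEGFD arrays were close to each other, at 12.03, 12.9 and 11.3. Melk, which encodes a kinase used as a proliferation marker, had 34.0, 40.01, 16.2 and 175.

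The chromosomal passenger complex corrects faulty attachments of chromosomes to the spindle. Birc5, which encodes its subunit survivin, had signals of 141, 186, 55.3 and 929. Aurkb, the gene of its kinase, had 50.3, 66.0, 15.6 and 143. Cdca8, which encodes its subunit borealin, had 87.7, 93.8, 72.7 and 637. Cdca8 differed in shape from the other genes of the complex, since VEGFD replicate 1 lay 1.21-fold below the dimmer Apex array and VEGFD replicate 2 lay 6.80-fold above the brighter array, the highest such ratio of the 39.

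The checkpoint genes included the dimmest signals of the list on VEGFD replicate 1. Bub1, a checkpoint kinase gene, had signals of 58.4, 83.8, 11.7 and 357. Bub1b, which encodes the checkpoint protein BubR1, had 20.9, 29.3, 1.22 and 166. Ttk, which encodes the checkpoint kinase Mps1, had 28.5, 32.8, 11.6 and 172. All 3 lay below the filter signal of 25.3 on VEGFD replicate 1, so their ratios between the VEGFD arrays, 30.5, 136 and 14.8, rest on dim values. Mad2l1, which encodes the checkpoint protein Mad2, was brighter, with 166, 218, 104 and 899.

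Genes of the anaphase-promoting complex pathway and of sister separation followed the same order. Cdc20, which encodes its mitotic activator, had signals of 246, 478, 125 and 2282. Ube2c, the gene of the ubiquitin-conjugating enzyme that works with it, had 137, 218, 39.5 and 1020.2. Ube2c had the largest log2 difference between the VEGFD arrays of all members, 4.22 on the log2(signal + 16) scale used for the comparisons. Pttg1, which encodes securin, had 523, 1386, 217 and 2506. Pttg1 was also the member whose Apex arrays lay farthest apart, at 2.65-fold. Espl1, which encodes separase, the protease that cuts cohesin, had 47.2, 62.1, 30.7 and 97.2. Cdca3, which encodes a protein that helps remove the kinase Wee1 at mitotic entry, had 70.7, 124, 34.1 and 258.

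At the centromere, Cenpa, which encodes the histone H3 variant of centromeric chromatin, had signals of 62.2, 119.8, 11.9 and 450.4. Cenpe, a kinetochore motor gene, had 56.6, 63.8, 20.2 and 258, and Cenpf, a gene of an outer kinetochore protein, had 44.0, 74.4, 27.1 and 222. The ratio between the VEGFD arrays was 37.7 for Cenpa, 12.7 for Cenpe and 8.19 for Cenpf. The signals of Cenpa and Cenpe on VEGFD replicate 1 were below the filter, so their ratios rest on dim values. Ndc80 and Nuf2 encode partner subunits of the complex that grips spindle microtubules. Ndc80 had 23.9, 36.5, 11.8 and 92.2, and Nuf2 had 63.3, 139.8, 25.9 and 184. Nuf2 was the member in which VEGFD replicate 2 lay least above the brighter Apex array, at 1.31-fold.

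Spindle motors and microtubule proteins made up 6 of the measured members. Kif4, the gene of a chromosome-bound kinesin, had signals of 61.5, 95.3, 44.5 and 126, and its 2.83-fold ratio between the VEGFD arrays was the smallest of the list. Kif11, the gene of the kinesin that keeps the spindle bipolar, had 38.2, 56.5, 17.1 and 99.8. Kif2c, which encodes a microtubule-depolymerising kinesin, had 54.3, 63.8, 23.3 and 373. The kinesin genes of the spindle therefore ranged from 2.83-fold to 15.99-fold between the VEGFD arrays. The upper end was Kif2c, whose signal on VEGFD replicate 1 was below the filter, as was that of Kif11. Tpx2, which encodes an activator of Aurora A, had 135, 137, 77.9 and 456. Nusap1, a gene of a microtubule-bundling protein, had 98.9, 119, 50.9 and 246. Hmmr, which encodes a hyaluronan receptor that also binds the spindle, had 113, 179.9, 41.2 and 473. The Apex signals of Tpx2 were the closest of any member, with an SD of 0.012 in log2(signal + 16), against an SD of 1.65 between its VEGFD arrays.

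Central spindle and cytokinesis genes completed the list. Kif23 and Racgap1 encode the subunits of centralspindlin. Kif23 had signals of 53.9, 35.5, 5.23 and 186, and Racgap1 had 88.6, 103, 72.5 and 260.2. Ect2, which encodes the exchange factor that centralspindlin recruits to start the furrow, had 153, 186, 53.1 and 437. Racgap1 and Kif23, although partners, differed 3.59-fold and 35.7-fold between the VEGFD arrays, with Kif23 far below the filter on VEGFD replicate 1. Kif20a, the gene of a central spindle kinesin, had 48.4, 83.6, 24.6 and 355. Prc1, which encodes a protein that bundles the central spindle, had 83.6, 123, 26.1 and 426. Anln, which encodes the furrow protein anillin, had 312, 361, 187 and 1429.9. In these genes too the Apex arrays lay together between the VEGFD arrays.

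The comparison that the design implies asks whether a tumour that makes VEGF-D changes expression in the vessels that drain it. For the mitosis genes no group difference was larger than the spread between replicates. Differences are VEGFD minus Apex in log2(signal + 16) with the standard error (SE) of a limma fit over all 11677 genes above the filter, n = 2 and 2. All 39 measured genes were above it, 36 of them also by their mean without VEGFD replicate 2. The other 3, Bub1b, Ndc80 and Ttk, were kept only through the array where they were highest. They are included in every count over the 39. In limma 0 of 39 members passed an adjusted p of 0.05, and 0 of all tested genes (0%). At an unadjusted p under 0.05 there were 0 of 39 members, against 5.7% of all genes. The members' adjusted p ran from 0.832 to 0.998. The SE was larger than the difference itself in 38 of 39 members. Of the members 0 had groups without overlap, against 38.5% of all genes, and 0 were 2-fold apart without overlap, against 3.88%.

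The differences were above 0 for 33 members and below 0 for 6, against 46.4% of all tested genes above 0. Their median was 0.39 beside -0.035 over all tested genes. With arrays centred on their medians, which moved the median of all genes to 0.088, the split was 37 and 2. With quantile normalization it was 36 and 3. The median within-group SD of the members was 2.07 in log2 for VEGFD and 0.30 for Apex, and the SD of VEGFD was the larger in 39 of 39. Over all tested genes these medians were 0.25 and 0.18.

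Cdca8 had the largest difference, 1.17 ± 0.91 (SE), with a limma adjusted p of 0.832. The next members by size were Nek2 (0.79 ± 0.93), Kif2c (0.72 ± 1.04), Mad2l1 (0.68 ± 0.93), Cdc20 (0.66 ± 1.28) and Ttk (0.63 ± 0.89). Their limma adjusted p values were 0.867, 0.894, 0.886, 0.917 and 0.888. Ttk was above the filter only through VEGFD replicate 2. Of the genes most used as proliferation markers, Mki67 had 0.42 ± 1.19, Top2a 0.56 ± 1.09 and Birc5 0.54 ± 1.17. For the main kinases the difference was 0.62 ± 1.01 in Cdk1, 0.37 ± 0.95 in Plk1 and -0.056 ± 0.76 in Aurkb. The limma adjusted p was 0.945 for Mki67, 0.918 for Top2a, 0.925 for Birc5, 0.908 for Cdk1, 0.936 for Plk1 and 0.987 for Aurkb. The Aurkb value was above 0 under 4 other choices of pseudocount, scaling or probe sets. With all probe sets of a gene averaged, Nek2 had 0.16, Kif2c 0.42 and Top2a 0.11. The widest SE of the list was that of Ube2c, 0.34 ± 1.32.

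Which VEGFD array was kept decided the sign. Without VEGFD replicate 1, 39 of 39 members were higher in VEGFD, against 46.2% of all genes, with a median of 1.85. Of the 39, 36 had an unadjusted limma p under 0.05, against 8.56% of all genes, and 35 were 2-fold apart without overlap, against 4.55%. In that limma fit 24 of the 39 passed an adjusted p of 0.05 as higher, against 1.18% of all genes. Among them were Cdca8 (2.61 ± 0.28, adjusted p = 0.0105), Birc5 (2.41 ± 0.28, 0.0111) and Ube2c (2.45 ± 0.32, 0.0158). Mki67 (2.29 ± 0.37, 0.0264) also passed, while Aurkb (1.11 ± 0.34, 0.136) and Pttg1 (1.54 ± 0.52, 0.173) did not. Without VEGFD replicate 2, 39 of 39 were lower, while 47.5% of all genes were higher, with a median of -1.06. Of the 39, 22 were 2-fold apart without overlap as lower, against 3.2% of all genes. In that limma fit 0 of 39 passed, against 0.0343% of all genes as lower, and 27 of 39 had an unadjusted p under 0.05, against 4.86% as lower and 2.77% as higher. Its smallest adjusted p was 0.293, for Ube2c at -1.77 ± 0.36. Each of these fits holds a lone VEGFD array that is assumed to vary like the Apex arrays, so neither describes the group. Without Apex replicate 1 or 2 the median was 0.16 or 0.58 and 0 members passed.

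**Figure D2:**
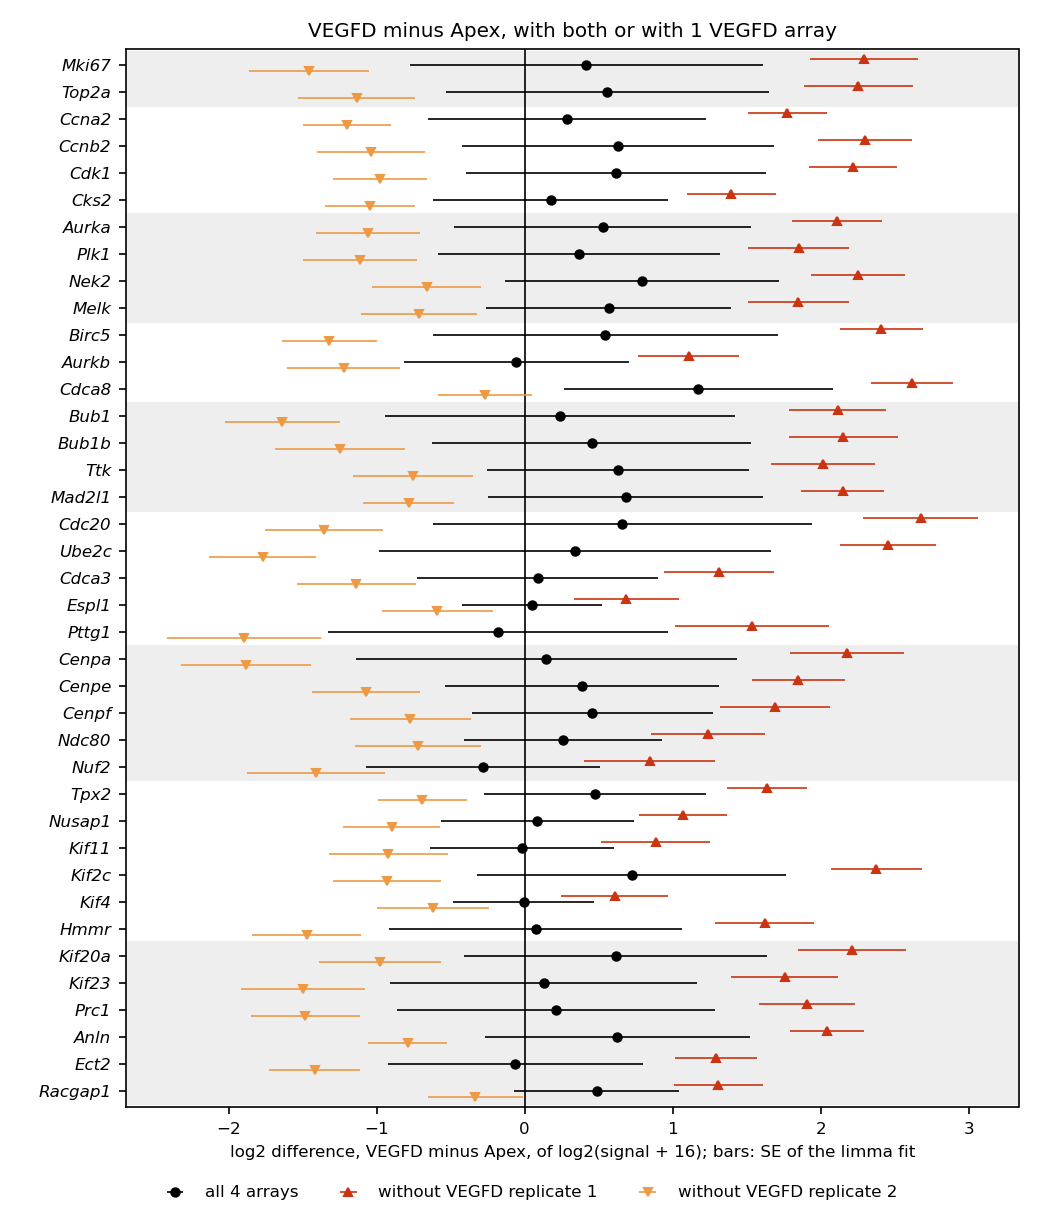
VEGFD minus Apex difference in log2(signal + 16) for the 39 measured mitosis genes, from all 4 arrays (black circles), without VEGFD replicate 1 (red triangles) and without VEGFD replicate 2 (orange triangles), with bars for the SE of each limma fit. With all arrays the bars cross 0 in 38 of 39 rows, and with a lone VEGFD array all 39 values lie above 0 or all 39 below 0.

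Other probe sets of the same genes gave a further reading of each transcript. Beside the 39 that stood for the genes there were 45 further single-gene probe sets, and 28 of them, from 18 genes, had a mean signal at or above 25.3. In 20 of the 28 VEGFD replicate 2 was again highest and VEGFD replicate 1 lowest, and in 8 they were not. Over the tested genes, each by its brightest probe set, the share was 10.2%. The mean that kept the 28 includes VEGFD replicate 2, so this count cannot test the order. A Cdc20 probe set with 2.76, 14.7, 2.55 and 92.7, for example, was above 25.3 on that array only. The 17 dimmer probe sets are not in the count. A brighter further Cdc20 probe set had signals of 118, 143, 77.5 and 817, and a second Ccna2 probe set had 123, 177, 57.3 and 507. Tpx2 was the clearest disagreement. Its 3 other probe sets did not follow the order, and the brightest of these had 54.5, 68.5, 55.8 and 43.9. With all probe sets of a gene averaged, Tpx2 had a difference of -0.12 in place of 0.47.

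Further mitosis genes outside the 40 behaved alike in part. A list of 50 was taken, with kinesins, condensin subunits and regulators of entry, of which 49 were measured and 45 tested. Of the 45, 0 passed in limma, against 0% of all genes. Their differences were above 0 in 37 and below in 8, against 46.4% of all genes above 0, and the median was 0.27. VEGFD replicate 2 was highest and VEGFD replicate 1 lowest in 34 of the 45, against 10.2% of all genes. The smallest unadjusted p values belonged to Zw10, a checkpoint gene (0.46 ± 0.26), Bub3, another checkpoint gene (0.55 ± 0.31), and Cit, which encodes citron kinase of the cleavage furrow (-0.39 ± 0.27). Their limma adjusted p was 0.825, 0.825 and 0.826. With all probe sets of a gene averaged, these differences were 0.082, 0.019 and 0.063, the last with its sign turned. Leaving out VEGFD replicate 2 gave 0.17 for Bub3, and leaving out VEGFD replicate 1 gave 0.93. Signals of Foxm1, the gene of a transcription factor of mitotic genes, picked here after looking at its values, were 81.2, 90.4, 65.5 and 87.6. Its highest signal was thus on Apex replicate 2.

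Genes of DNA replication and nucleotide supply, which act earlier in the cycle, differed less between the VEGFD arrays. The median of VEGFD replicate 2 minus VEGFD replicate 1 was 2.93 for the mitosis genes, 1.88 for the further mitosis genes and 1.56 for 29 tested replication genes, beside -0.036 over all genes. For Apex replicate 2 minus Apex replicate 1 the medians were 0.40, 0.26, 0.23 and 0.015. Differences between 2 arrays have no replicate and were not tested. At least a 2-fold higher value on VEGFD replicate 2 was found in 39 of 39 mitosis genes and 5.53% of all genes. At least a 4-fold higher value on VEGFD replicate 2, again in log2(signal + 16), was found in 33 of 39 mitosis genes and 1.28% of all genes. Of the 149 genes with such a difference 22.1% were among the 39. Between the groups 0 of 29 replication genes passed in limma, against 0% of all genes. Their differences were above 0 in 20 and below in 9, against 46.4% of all genes above 0, with a median of 0.20. Rrm2 and Rrm1, which encode subunits of the enzyme that makes deoxynucleotides, had -0.34 ± 0.19 and 0.69 ± 0.56. Mcm6, a gene of the replicative helicase, had 0.79 ± 0.66. Rrm1 passed at 1.52 when VEGFD replicate 1 was left out (limma adjusted p = 0.0374), and was -0.14 when VEGFD replicate 2 was. VEGFD replicate 2 was highest and VEGFD replicate 1 lowest in 22 of the 29 replication genes, against 10.2% of all genes. At least 2-fold higher values on VEGFD replicate 2 were found in 24 of the 29, against 5.53%. Most of this list thus had the order of the mitosis genes. Rrm2, with signals of 4609, 4489, 3601 and 3567, did not. With all probe sets of a gene averaged, Mcm6 had 0.24.

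Genes that hold the cycle back or start it had that order about as often as all genes. Of 19 tested CDK inhibitor, D cyclin and E2F/Rb genes, 2 had VEGFD replicate 2 highest and VEGFD replicate 1 lowest, against 10.2% of all genes. In limma 0 of 19 passed, against 0% of all genes. Their differences were above 0 in 8 and below in 11, near the 46.4% of all genes above 0, with a median of -0.14. Mdm2, which encodes the p53 ligase, had signals of 751, 918, 1430 and 1355 and a difference of 0.73 ± 0.22, or 0.24 with its probe sets averaged. Cdkn2b, which encodes the inhibitor p15, had 907, 1000.2, 628 and 439 and a difference of -0.84 ± 0.26. Ccnd2, a D cyclin gene, had -0.48 ± 0.21, and the limma adjusted p of all 3 was 0.823. The groups did not overlap in Mdm2, Cdkn2b or Ccnd2. These 3 were picked for the smallest unadjusted p of the 19, which favours groups without overlap. The share of 38.5% over all genes, which were not picked in this way, is therefore no measure for them. Cdkn1c, which encodes the inhibitor p57 and was chosen after its values were seen, ran opposite to the mitosis genes within the VEGFD group. Its signals were 2408, 1538, 2002 and 408, and its difference was -1.07 ± 0.74 (limma adjusted p = 0.826). Leaving out VEGFD replicate 1 gave -2.20 (0.0215) and leaving out VEGFD replicate 2 gave 0.056.

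**Figure D3:**
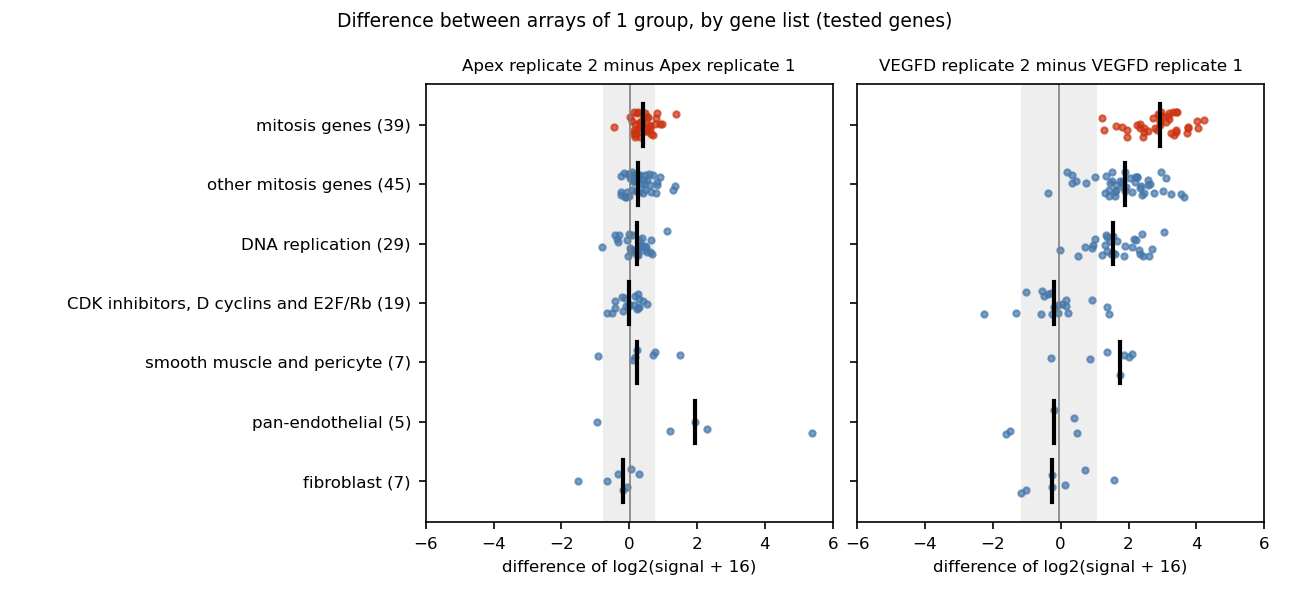
Difference between the arrays of a group in log2(signal + 16) for the tested genes of 7 lists, Apex on the left and VEGFD on the right, with each point a gene, black bars for list medians, the grey line for the median of all tested genes and the grey band for their 5th to 95th percentile. All 39 mitosis genes (red) lie right of the band for VEGFD, which ends at 1.05, and their medians are 0.40 for Apex and 2.93 for VEGFD.

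Markers of cell types were set beside the mitosis genes. Smooth muscle and pericyte markers, 8 in all, summed to 4637, 5379, 7250.3 and 17298, and 5 of the 7 tested were highest on VEGFD replicate 2, against 29.6% of all genes. VEGFD replicate 1 was lowest as well in 1 of the 7. Most of the sum was Acta2, a contractile gene, with signals of 3525, 4096, 4840 and 8802. Tagln, also contractile, had 454, 746, 1632 and 5553. The tested markers Des and Rgs5 were not highest on VEGFD replicate 2. Des had 85.0, 94.0, 10.1 and 51.1, and Rgs5 had 20.4, 46.0, 25.2 and 18.0. Myh11 reached at most 19.2. Fibroblast markers summed to between 15960 and 18067. Within this sum Dpt was far lower on both VEGFD arrays than on both Apex arrays. Leukocyte markers summed to between 626 and 779. Most of the leukocyte sum was Csf1r, with signals of 503, 472, 335 and 558. On each array 5 of the 9 measured leukocyte markers lay below 25.3. Ptprc, which marks all leukocytes, was among these and reached at most 13.03. Pan-endothelial markers summed to 278, 3565, 287 and 164, with the highest sum on Apex replicate 2 and the lowest on the array with the highest mitosis signals. Most of the sum on Apex replicate 2 was Emcn, which had signals of 48.4, 2670, 106 and 24.0. Tek was instead highest on Apex replicate 1, with 101, 43.9, 86.1 and 20.3. The 7 measured lymphatic markers summed to 1084, 2115, 1483 and 1966, the 3 measured adipocyte markers to 1794, 4221, 1112 and 1061, and the 7 epithelial markers to 393, 499, 237 and 150.1. Most of the lymphatic sum was Pdpn, which encodes podoplanin and had signals of 963, 1622, 1237 and 1715. Most of the adipocyte sum was Fabp4, which encodes a fatty acid carrier and had 1741, 4073, 1098 and 1047. The part of these cell types in the mitosis signals was not tested.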

How the data were processed

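Signals were measured on 4 arrays, 2 Apex and 2 VEGFD. The authors deposited linear intensity, 1 value per probe set, for 45101 probe sets. Each array's deposited intensity averaged 150 after trimming 2% of probe sets at each end. The algorithm and software behind the signals were not given in the sources used here. Detection calls were not used.

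Values were taken as log2(signal + 16), which understates folds of dim genes. Genes were kept where the mean over arrays reached the median of non-control probe sets, 5.37 or a signal of 25.3, which left 11677 of 18193. The group test was a two-sided limma fit (version 3.58.1, R 4.3.3) with eBayes and its trend option. P values were adjusted by Benjamini and Hochberg over all kept genes. The titles call the replicates biological without saying how many mice each holds, and p-values measure the spread between these samples. An exact permutation test of 2 against 2 arrays cannot go below p = 0.333. The fit was tested on simulated data with known changes. Alternatives covered pseudocount, scaling, filter, probe sets, trend, replicate block and leaving out each array. The members and lists were chosen with earlier results of these data known. All 39 measured members were given with signals, with full statistics for the 6 with the largest difference and for Mki67, Top2a, Cdk1, Birc5, Aurkb and Plk1, and from each further cycle list the 3 genes with the smallest p.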

Additional observations from a re-analysis of the deposited data

How the results depend on the processing

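Each group had 2 arrays, which limits the precision, and 12 of 39 members were below the filter signal on VEGFD replicate 1. The count of members passing stayed at 0 under each pseudocount, scaling, filter, probe set and trend setting, and without either Apex array or VEGFD replicate 2. With 1 array left out it ran from 0 to 24, the count 2-fold apart without overlap from 0 to 35, and the median from -1.06 to 1.85, with both ends set by the VEGFD arrays. Under the other settings the median lay between 0.28 and 0.51. The labels do not say that same-numbered arrays pair, and with the replicate block 0 members passed and the median was 0.39. Over all genes the block raised the limma calls from 0 to 6, and deviations of same-numbered arrays correlated at 0.20 across genes.

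Differences of changed sign were 0.075 (Aurkb), 0.055 (Kif11), 0.021 (Kif4) and 0.057 (Ect2) with a pseudocount of 64, and -0.072 (Bub1), -0.39 (Kif23), -0.19 (Cenpa) and -0.020 (Hmmr) with a pseudocount of 1. With arrays centred on their medians they were 0.067 (Aurkb), 0.11 (Kif11), 0.12 (Kif4) and 0.061 (Ect2), and with quantile normalization 0.0041 (Aurkb), 0.060 (Kif11) and 0.025 (Kif4). With averaged probe sets they were 0.012 (Aurkb), -0.12 (Tpx2), -0.051 (Nusap1), 0.28 (Kif11), -0.036 (Cdca3) and 0.063 (Cit). The cause was not tested beyond the setting changed.

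With 1 array left out, the differences ran as follows: Mki67 -1.46 to 2.29, Top2a -1.14 to 2.25, Ccna2 -1.20 to 1.77, Ccnb2 -1.04 to 2.30, Cdk1 -0.98 to 2.22, Birc5 -1.32 to 2.41, Bub1 -1.64 to 2.12, Bub1b -1.25 to 2.15, Aurka -1.06 to 2.11, Aurkb -1.22 to 1.11, Plk1 -1.11 to 1.85, Cdc20 -1.35 to 2.67, Ube2c -1.77 to 2.45, Tpx2 -0.69 to 1.64, Nusap1 -0.90 to 1.07, Kif11 -0.92 to 0.89, Kif20a -0.98 to 2.21, Kif23 -1.50 to 1.76, Kif2c -0.93 to 2.38, Kif4 -0.62 to 0.61, Cenpa -1.88 to 2.18, Cenpe -1.07 to 1.85, Cenpf -0.77 to 1.69, Ttk -0.75 to 2.02, Nek2 -0.66 to 2.25, Ndc80 -0.72 to 1.24, Nuf2 -1.41 to 0.84, Prc1 -1.48 to 1.91, Anln -0.79 to 2.04, Ect2 -1.42 to 1.29, Racgap1 -0.33 to 1.31, Cdca3 -1.14 to 1.31, Cdca8 -0.27 to 2.61, Cks2 -1.05 to 1.40, Espl1 -0.59 to 0.69, Pttg1 -1.90 to 1.54, Melk -0.72 to 1.85, Mad2l1 -0.78 to 2.15, Hmmr -1.47 to 1.62, Rrm1 -0.14 to 1.52 and Mcm6 -0.14 to 1.72.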

Other observations

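Other genes also separated the VEGFD arrays. The 12 genes outside the lists with the largest difference in each direction were taken, chosen on their values and with no test. Among those higher on VEGFD replicate 2, Pclaf, which encodes a PCNA-binding factor of replicating cells, had signals of 319, 418, 68.4 and 1601 in the order Apex replicates 1 and 2, VEGFD replicates 1 and 2. Cenpi, a centromere gene, had 37.7, 42.5, 4.47 and 162, and Cip2a, the gene of a phosphatase inhibitor, had 96.6, 107, 35.7 and 438. Not all were cycle genes. Sema7a, a semaphorin gene, had 101, 179, 61.3 and 1002, Dusp5, which encodes a phosphatase of the kinase ERK, 61.8, 117, 66.9 and 1016, Serpinb2, a protease inhibitor gene, 610.4, 294, 560.5 and 4886, and Tnc, which encodes the matrix protein tenascin C, 188, 1411, 287 and 2431.

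Among those lower on VEGFD replicate 2, Ndufa4l2, a mitochondrial gene, had signals of 488, 276, 633 and 9.84, and Cdo1, which encodes cysteine dioxygenase, had 1076, 892, 752 and 25.1. Ndrg1, a stress-response gene, had 993, 781, 1049.7 and 84.1, Sema3c, another semaphorin gene, 1433, 2254, 1989.8 and 183.0, and Fmo2, which encodes a flavin-containing monooxygenase, 3276, 3762, 3310.0 and 266. At least 4-fold lower values on VEGFD replicate 2, in log2(signal + 16), were found in 140 of the 11677 tested genes. Of the 39 mitosis genes 0 were among them, which is near the small share over all genes.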
